A study of Mus musculus with 12 samples.

Results

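The 10 genes followed across primary mammary tumours of mice are used as markers of dendritic cells: Flt3, Zbtb46, Batf3, Xcr1, Clec9a, Cd209a, Siglech, Itgae, Fscn1 and Irf8. They are 10 of the 56860 genes in the deposited count table, listed by name with earlier results of these data known. All 10 were among the 30660 genes that passed the filter on low counts. Total RNA came from 12 tumours taken at 4.5 months, 4 for each of 3 genotypes. Every mouse carried the MMTV-PyMT transgene, in which a mammary tumour virus promoter drives a polyoma virus oncogene, and, per the design text, MMTV-Cre. For WT tumours nothing further is named, and their strain label gives MMTV-PyMT alone. C3_KO tumours carried the C3Tdt allele of complement component C3, and S1pr1_KO tumours carried S1pr1fl/fl, the floxed sphingosine-1-phosphate receptor gene. MMTV drives Cre mainly in mammary epithelium, so dendritic cells and other non-epithelial cells can keep the targeted gene. Whether tumours of one genotype were taken from different mice is not in the labels, so p-values measure the spread between these samples, which may be technical.

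Dendritic cells take up antigen in tissue and present it to T cells. In mice they fall into conventional type 1 cells, which cross-present antigen to CD8 T cells, conventional type 2 cells, which mainly prime CD4 T cells, and plasmacytoid cells, known for type I interferon. After activation, conventional cells leave for the lymph node as mature migratory cells. Flt3 encodes the receptor for the growth factor that sustains them, and Zbtb46 a transcription factor of the conventional lineage. Batf3 and Irf8 encode transcription factors of type 1 cells, and Xcr1, Clec9a and Itgae encode surface proteins found on them. Cd209a marks a type 2 population, Siglech plasmacytoid cells, and Fscn1, an actin-bundling protein, mature cells. Several of these genes are also used elsewhere: Irf8 in B cells and macrophages, Itgae in T cells of epithelia, and Fscn1 in many non-immune cells.

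The sequences just before the start sites are shown for the pair of type 1 markers that are compared as a ratio further on, Clec9a and Xcr1, and for Flt3, Cd209a and Siglech, whose highest levels were found in the same pair of tumours. Each is the 250 bases before the start site, 5′ to 3′ on the gene's strand, from RefSeq on build GRCm38.p6, an older build than the authors' GRCm39. The windows lie at chr6:129408612-129408861 (plus strand), chr9:123862030-123862279 (minus strand), chr5:147400490-147400739 (minus strand), chr8:3748985-3749234 (minus strand) and chr7:55767934-55768183 (plus strand). Both strands were searched, and capitals mark matches to TATAAA or to CACGTG.
Clec9a: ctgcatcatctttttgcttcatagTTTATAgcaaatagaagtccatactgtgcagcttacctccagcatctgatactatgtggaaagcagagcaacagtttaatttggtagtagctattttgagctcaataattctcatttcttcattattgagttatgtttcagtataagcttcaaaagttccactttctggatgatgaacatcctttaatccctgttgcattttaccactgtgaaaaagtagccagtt
Xcr1: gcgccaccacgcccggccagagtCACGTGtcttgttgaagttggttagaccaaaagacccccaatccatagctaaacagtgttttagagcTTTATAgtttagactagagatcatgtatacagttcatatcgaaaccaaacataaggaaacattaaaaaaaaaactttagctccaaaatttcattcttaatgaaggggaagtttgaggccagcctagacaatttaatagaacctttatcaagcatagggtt
Flt3: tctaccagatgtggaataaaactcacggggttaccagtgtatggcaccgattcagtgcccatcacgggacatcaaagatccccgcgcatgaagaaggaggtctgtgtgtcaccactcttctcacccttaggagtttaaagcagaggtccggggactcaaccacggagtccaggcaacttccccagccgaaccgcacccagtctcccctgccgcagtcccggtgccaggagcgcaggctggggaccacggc
Cd209a: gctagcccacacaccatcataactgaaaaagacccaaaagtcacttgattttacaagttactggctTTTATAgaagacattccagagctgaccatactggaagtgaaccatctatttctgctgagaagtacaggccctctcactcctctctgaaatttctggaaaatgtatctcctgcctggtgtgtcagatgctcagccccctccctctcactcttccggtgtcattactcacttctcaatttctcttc
Siglech: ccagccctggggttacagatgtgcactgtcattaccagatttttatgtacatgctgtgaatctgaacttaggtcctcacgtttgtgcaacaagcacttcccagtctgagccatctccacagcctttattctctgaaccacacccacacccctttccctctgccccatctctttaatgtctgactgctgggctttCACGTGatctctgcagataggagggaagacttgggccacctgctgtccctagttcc
The letters TATAAA, those of the TATA box, were found only on the opposite strand in the windows of Clec9a, Xcr1 and Cd209a. There they read TTTATA, at 226, 160 and 184 bases before the start site. On either strand, 12.4% of the 32851 mouse windows of this length held the letters. Fscn1 and the first entry of Irf8, not shown, held TATAAA on the gene's strand at 31 bases before the start site. The letters CACGTG, one form of the E-box, were found in the windows of Xcr1 and Siglech and in that of Batf3, not shown, against 6.02% of all windows. None of the 5 windows held TGANTCA, the AP-1 site with N for any base, which 6.75% of all windows held and which was found in that of Zbtb46. Of the 10 genes, 9 had an entry in the promoter table, and Itgae had none.

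Transcripts of these genes were checked for look-alikes among the GENCODE M21 transcripts. No reads were examined, so how reads were assigned to genes was not tested. No run of 50 bases in the longest coding transcript of Flt3, Zbtb46, Batf3, Cd209a, Itgae, Fscn1 or Irf8 occurred in a transcript of another gene. Cd209a belongs to a family of related lectin genes, and its transcript still shared no such run with them. The share of such runs found in other genes was 1.63% for Xcr1 and 1.15% for Siglech, over 429 and 195 other genes. For Clec9a it was 4.19%, all with Clec1b, a neighbouring lectin gene on the same strand whose exons overlap 5.59% of the Clec9a exon bases. The level of Clec1b was between 0.0465 and 0.511 CPM, below Clec9a in each of the 12 libraries.

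All 10 genes were counted in all 12 libraries, most of them at low levels. Library totals lay between 230.4 and 484.0 in units of 1e6 counts, and the lowest count of any of the 10 genes was 40, for Siglech in C3_KO replicate 3. Compared per length, in the authors' FPKM (counts per kilobase of gene and per 1e6 counts), Fscn1 had the highest median over the 12 libraries at 12.5, followed by Irf8 at 2.40 and Batf3 at 1.43. Cd209a at 0.722, Zbtb46 at 0.662 and Itgae at 0.492 came next, then Siglech at 0.256, Clec9a at 0.216, Flt3 at 0.137 and Xcr1 at 0.116 FPKM. Only Fscn1 and Irf8 were parted from each other in this order: Fscn1 ranged from 5.88 to 37.4 FPKM and Irf8 from 0.851 to 3.95 FPKM, while the ranges of all other neighbours overlapped. The mammary epithelial markers Epcam, Krt8, Krt18 and 7 others were detected in every library and summed to between 2781 and 8123 CPM, as the tissue label says. C3 stood at 41.6 to 75.1 CPM in C3_KO and 43.3 to 182 CPM in WT, and S1pr1 at 2.59 to 7.43 CPM in S1pr1_KO and 2.88 to 8.02 CPM in WT, so that neither targeted gene parted its genotype from WT in whole tumours. Some libraries stood apart in other tissues' transcripts. C3_KO replicate 3 had milk markers summing to 87602 CPM against at most 5946 CPM elsewhere, S1pr1_KO replicates 1 and 4 had salivary markers at 151541 and 4677 CPM against at most 208 CPM elsewhere, and S1pr1_KO replicates 1 and 2 had B cell markers at 159.7 and 86.5 CPM against at most 15.7 CPM elsewhere. In whole tumours, fewer cells of a type and less RNA per cell cannot be told apart.

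**Figure D1:**
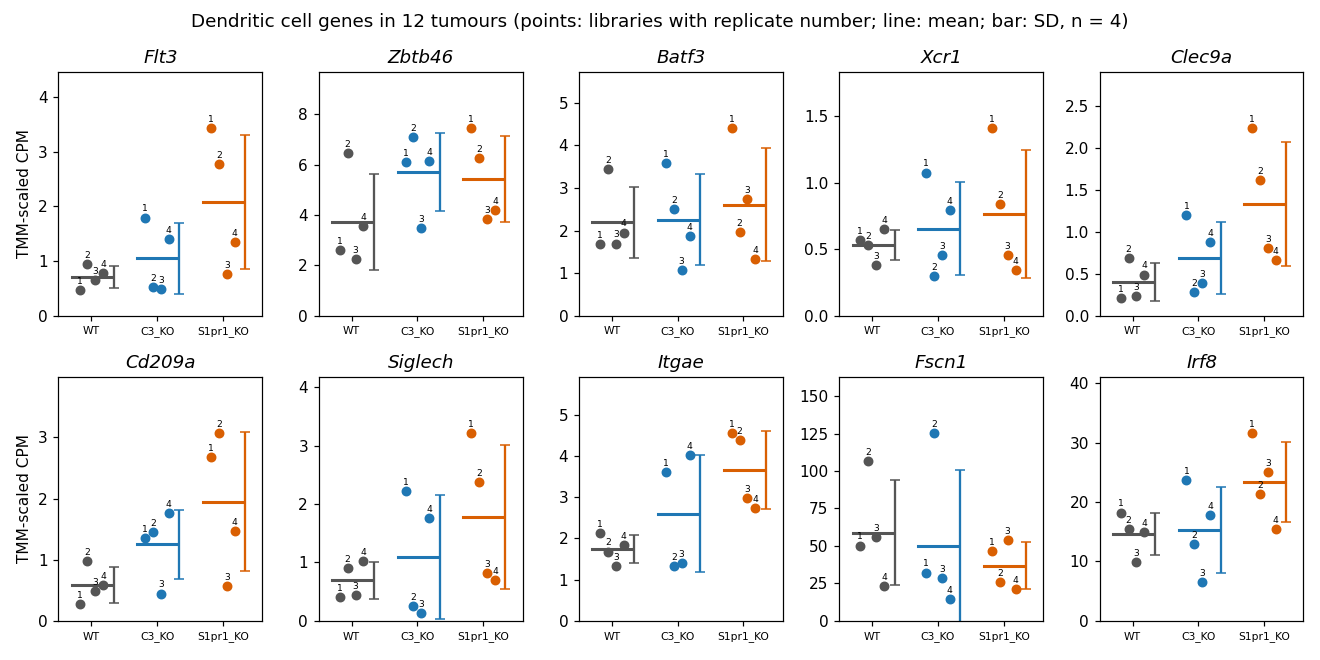
Levels of the 10 dendritic cell genes in TMM-scaled counts per 1e6 counts (CPM, y axis, from 0) for the 3 genotypes (x axis). Points are libraries with their replicate number, the line is the mean and the bar is the SD of 4 libraries, drawn no lower than 0. S1pr1_KO replicate 1 is the highest of the 12 libraries for 8 genes, while Fscn1 is highest in C3_KO replicate 2 at 125 CPM.

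The lineage-wide genes were examined first. Flt3, in counts per 1e6 counts with edgeR's TMM scaling (CPM), was 0.465, 0.952, 0.650 and 0.773 in WT replicates 1 to 4, 1.80, 0.516, 0.488 and 1.40 in C3_KO, and 3.44, 2.78, 0.764 and 1.35 in S1pr1_KO. In S1pr1_KO, 3 tumours lay above all WT tumours, and replicate 3 lay within the WT range. Zbtb46 was 2.59, 6.45, 2.25 and 3.57 CPM in WT, 6.12, 7.08, 3.49 and 6.13 CPM in C3_KO, and 7.45, 6.25, 3.84 and 4.19 CPM in S1pr1_KO. WT replicate 2 was the one WT tumour at the level of the higher knockout tumours, and the groups overlapped. The spread of Flt3 over the 12 libraries was 7.39-fold, and that of Zbtb46 3.30-fold.

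Surface proteins of type 1 cells came next. Clec9a, a receptor for dead cells, was 0.204, 0.684, 0.235 and 0.489 CPM in WT, 1.20, 0.279, 0.383 and 0.881 CPM in C3_KO, and 2.24, 1.62, 0.810 and 0.661 CPM in S1pr1_KO. In S1pr1_KO, 3 tumours exceeded all WT tumours for Clec9a, and replicate 4 lay just under the highest WT value. Xcr1, the receptor for the chemokine XCL1, was 0.571, 0.533, 0.381 and 0.651 CPM in WT, 1.08, 0.296, 0.453 and 0.792 CPM in C3_KO, and 1.41, 0.838, 0.453 and 0.346 CPM in S1pr1_KO. Unlike Clec9a, it was in S1pr1_KO above all WT tumours in 2 libraries and below all of them in replicate 4. Itgae, the integrin chain CD103 that binds E-cadherin, was 2.12, 1.68, 1.33 and 1.83 CPM in WT, 3.61, 1.34, 1.41 and 4.02 CPM in C3_KO, and 4.55, 4.39, 2.97 and 2.72 CPM in S1pr1_KO. It was the one gene of the 10 with every S1pr1_KO tumour above every WT tumour, where 2.78% of all genes tested were parted in that direction and 7.58% in either. C3_KO split for Itgae, with replicates 1 and 4 above the WT range and replicates 2 and 3 inside it.

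Batf3, the transcription factor that type 1 cells need, was 1.68, 3.44, 1.69 and 1.95 CPM in WT, 3.58, 2.51, 1.07 and 1.86 CPM in C3_KO, and 4.41, 1.96, 2.75 and 1.33 CPM in S1pr1_KO. Each knockout genotype had a tumour above and a tumour below all WT tumours. Irf8, its partner factor, was 18.2, 15.5, 9.89 and 14.9 CPM in WT, 23.7, 13.0, 6.52 and 17.9 CPM in C3_KO, and 31.6, 21.3, 25.0 and 15.5 CPM in S1pr1_KO. For Irf8, 3 S1pr1_KO tumours lay above all WT tumours, and replicate 4 lay within the WT range.

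Markers of the other subsets and states followed. Cd209a, a C-type lectin, was 0.268, 0.974, 0.492 and 0.580 CPM in WT, 1.35, 1.45, 0.447 and 1.77 CPM in C3_KO, and 2.68, 3.07, 0.573 and 1.48 CPM in S1pr1_KO. For Cd209a, 3 tumours of each knockout genotype exceeded all WT tumours, and replicate 3 of each did not. Siglech, a sialic acid-binding receptor, was 0.409, 0.907, 0.439 and 1.02 CPM in WT, 2.23, 0.256, 0.127 and 1.77 CPM in C3_KO, and 3.21, 2.38, 0.825 and 0.695 CPM in S1pr1_KO. Its spread over the libraries was the widest of the 10 genes at 25.4-fold, and C3_KO alone had tumours both above and below the whole WT range. Fscn1 was 50.2, 107, 55.7 and 23.2 CPM in WT, 32.2, 125, 28.8 and 14.4 CPM in C3_KO, and 46.5, 25.9, 53.9 and 21.3 CPM in S1pr1_KO. Its order of libraries was unlike that of the other genes: C3_KO replicate 2 and WT replicate 2 were highest, and the groups overlapped throughout.

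**Figure D2:**
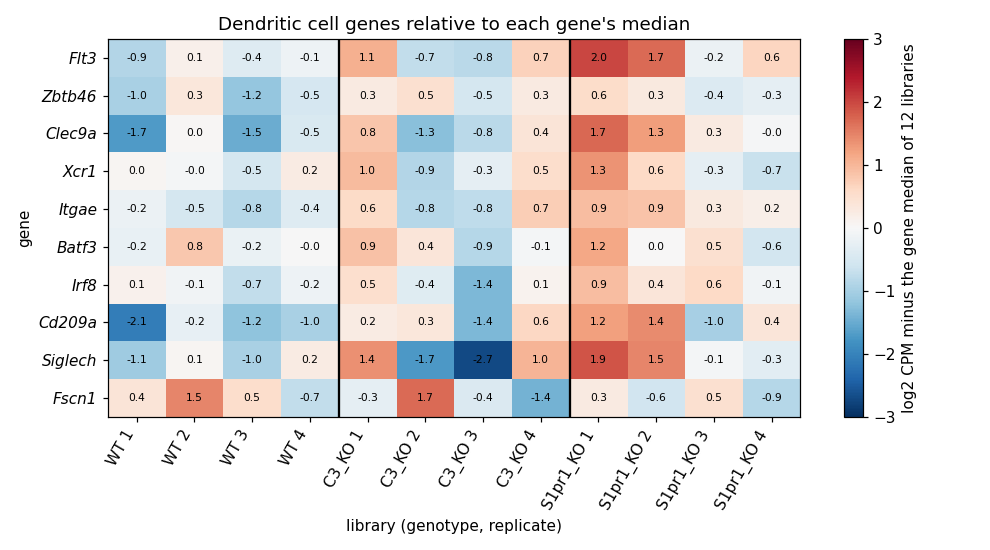
Each gene (rows) in each library (columns), as log2 CPM minus that gene's median over the 12 libraries, with red above and blue below the median. Most genes are above their medians in C3_KO replicates 1 and 4 and S1pr1_KO replicates 1 and 2, and Siglech is lowest in C3_KO replicate 3 at -2.72.

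S1pr1_KO tumours were compared with WT to ask how targeting the sphingosine-1-phosphate receptor bears on the tumour's dendritic cell transcripts. Of the 10 genes, 9 had a log2 fold change above 0, where 51.7% of all genes tested did, and their median was 0.87 against 0.03 over all genes tested. None was called by edgeR's quasi-likelihood test at an adjusted p of 0.05, a threshold that 0% of the 30660 genes tested passed in this comparison. Without adjustment, 4 of the 10 had a p under 0.05, all of them higher, and 7.69% of all genes tested had such a p and were higher, or 15.5% in either direction. These 4 were Cd209a, Clec9a, Flt3 and Itgae.

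The mean of Cd209a was 1.95 ± 1.14 CPM (SD, n = 4) in the S1pr1_KO tumours and 0.578 ± 0.295 CPM in the WT tumours, and its log2 fold change was 1.75 ± 0.58 (SE; edgeR adjusted p = 0.241). The mean of Clec9a was 1.33 ± 0.736 CPM (SD, n = 4) in the S1pr1_KO tumours and 0.403 ± 0.227 CPM in the WT tumours, and its log2 fold change was 1.72 ± 0.60 (SE; edgeR adjusted p = 0.242). The mean of Flt3 was 2.08 ± 1.24 CPM (SD, n = 4) in the S1pr1_KO tumours and 0.710 ± 0.205 CPM in the WT tumours, and its log2 fold change was 1.55 ± 0.55 (SE; edgeR adjusted p = 0.249). For these 3 genes the SD within S1pr1_KO exceeded the WT mean, and the same pair of libraries, replicates 1 and 2, held the highest values. Itgae differed less in size but spread less, at 3.66 ± 0.944 CPM (SD, n = 4) against 1.74 ± 0.328 CPM, and its log2 fold change was 1.07 ± 0.40 (SE; edgeR adjusted p = 0.262).

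The other 6 genes did not reach an unadjusted p of 0.05. Siglech had a log2 fold change of 1.36 with a 95% interval from -0.47 to 3.18, and Irf8 one of 0.67 with an interval from -0.13 to 1.48. Zbtb46 stood at 0.55, Xcr1 at 0.51 and Batf3 at 0.25 on the log2 scale, with intervals from -0.31 to 1.41, from -0.64 to 1.67 and from -0.77 to 1.28. Fscn1 was the one gene below 0, at -0.67 with an interval from -2.05 to 0.70. These intervals include both no difference and, for all but Fscn1, a log2 rise of 1 or more.

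**Figure D3:**
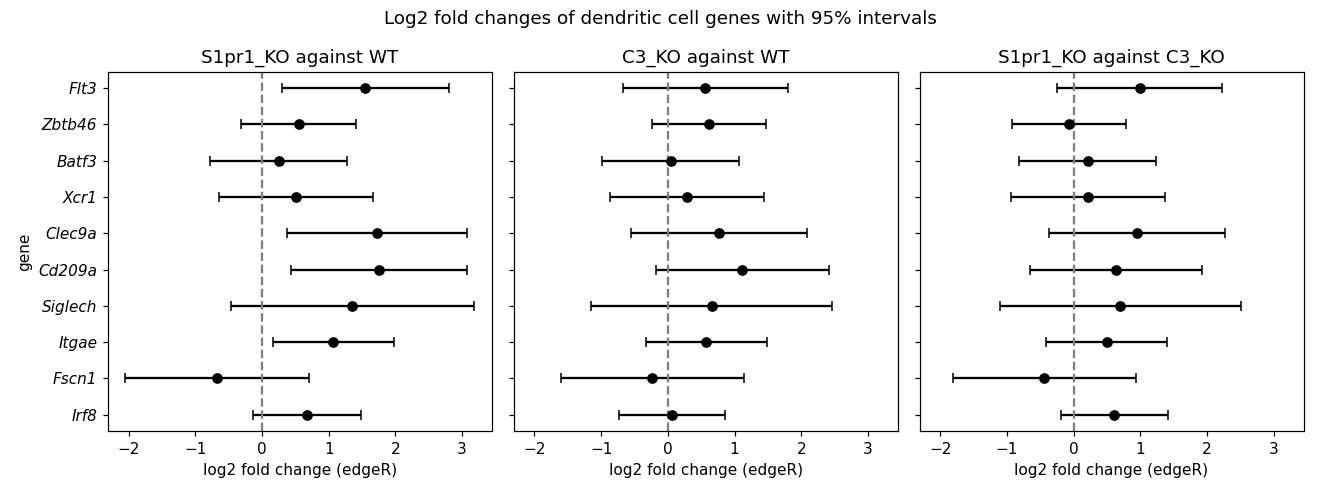
Log2 fold changes (x axis) of the 10 genes (y axis) in the 3 comparisons, from edgeR, with 95% intervals as bars. In S1pr1_KO against WT the intervals of Flt3, Clec9a, Cd209a and Itgae lie above 0, and in the other comparisons every interval includes 0.

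The calls depended on the test and on S1pr1_KO replicate 3, whose values lay nearest to WT for Flt3 and Cd209a. Without that library, Cd209a alone of the 10 passed, at a log2 fold change of 2.10 (edgeR adjusted p = 0.0484), where 1.55% of all genes passed and were higher. DESeq2 called Cd209a (adjusted p = 0.0425) and 1.87% of all genes as higher. Limma-voom with quality weights called Flt3, Clec9a, Cd209a and Itgae, with adjusted p-values from 0.00784 to 0.0204, and 11.1% of all genes as higher.

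B cell transcripts were high in S1pr1_KO replicates 1 and 2, and T cell transcripts in replicate 1. The B cell markers Ms4a1, Pax5 and 7 others had log2 fold changes above 0 in 9 of 9, and their summed level ranged from 3.47 to 159.7 CPM in S1pr1_KO, against 3.27 to 5.28 CPM in WT (C3_KO: 1.77 to 15.7 CPM), with none of them at 0 in any library. T cell markers were above 0 in 10 of 10, with sums of 14.3 to 65.2 CPM in S1pr1_KO against 11.7 to 22.8 CPM in WT (C3_KO: 9.72 to 40.2 CPM), again with none at 0. The T cell sum was 65.2 CPM in S1pr1_KO replicate 1, while that of replicate 2, at 25.9 CPM, was close to the 23.0 CPM of replicate 3. Markers of several other cell types were also above 0: 8 of 8 endothelial genes with a median log2 fold change of 0.77, 8 of 8 fibroblast genes with 0.71, 8 of 8 adipocyte genes with 2.76 and 6 of 6 NK cell genes with 1.06. Macrophage genes were above 0 in 7 of 10, with a median of 0.37. Mammary epithelial genes were below 0 in 8 of 10, with a median of -0.44. Their sums were 2781, 3182, 6461 and 3165 CPM in S1pr1_KO replicates 1 to 4, against 3855 to 8123 CPM in WT. Without S1pr1_KO replicates 1 and 2, the log2 fold change was 0.57 for Flt3, 0.13 for Siglech and 0.11 for Zbtb46, and it turned to -0.42 for Xcr1 and -0.11 for Batf3. It was 0.86 for Clec9a, 0.82 for Cd209a, 0.71 for Itgae and 0.47 for Irf8 in the remaining tumours, whose B cell sums of 3.47 and 4.55 CPM lay within the WT range, and none of the 10 was called. The part of other cell types in these levels was not tested.

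**Figure D4:**
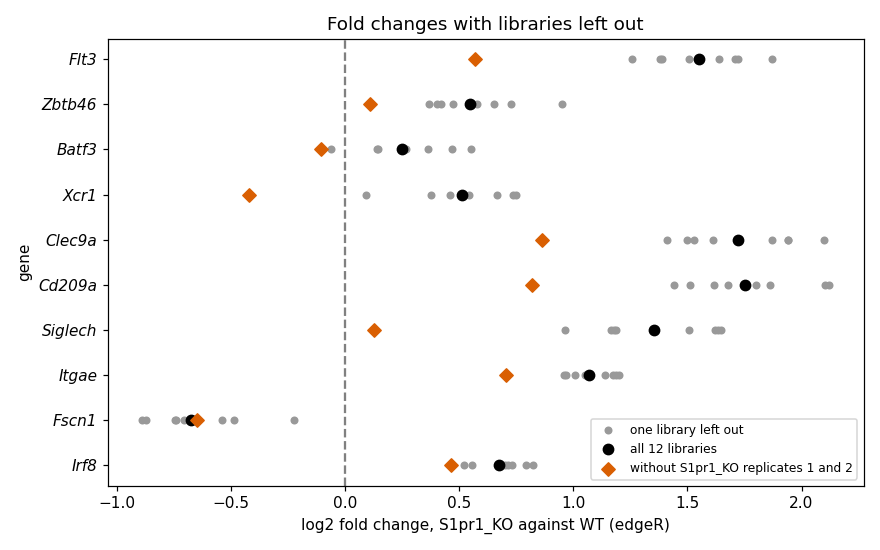
Log2 fold change in S1pr1_KO against WT (x axis) for each gene (y axis) with all 12 libraries (black), with each library left out in turn (grey) and without S1pr1_KO replicates 1 and 2 (orange diamonds). Leaving out both libraries moves Flt3 from 1.55 to 0.57 and Xcr1 to -0.42, while Fscn1 is nearly the same at -0.65.

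The ratio of each pair of the 10 genes was also compared within libraries, which does not depend on how libraries are scaled, and the pair described in full was singled out after its values were seen. The ratio of Clec9a to Xcr1 was 1.59, 1.93, 1.79 and 1.91 in S1pr1_KO replicates 1 to 4, 0.358, 1.28, 0.618 and 0.752 in WT, and 1.12, 0.943, 0.846 and 1.11 in C3_KO. Every S1pr1_KO tumour lay above every tumour of the other genotypes. The mean log2 ratio was 1.40 higher in S1pr1_KO than in WT, with an exact 2-sided permutation p of 0.0286, the smallest that 4 against 4 libraries allow, and 0.203 after adjustment over the 45 pairs. Among these, 4 reached that smallest p in S1pr1_KO against WT, and each of the 4 set Xcr1 or Clec9a against another gene: Batf3 over Clec9a, Xcr1 over Clec9a, Xcr1 over Siglech and Zbtb46 over Clec9a. None passed the adjustment. In contrast, Cd209a over Clec9a overlapped between all genotypes, at 1.19 to 2.09 in WT and 0.708 to 2.23 in S1pr1_KO.

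**Figure D5:**
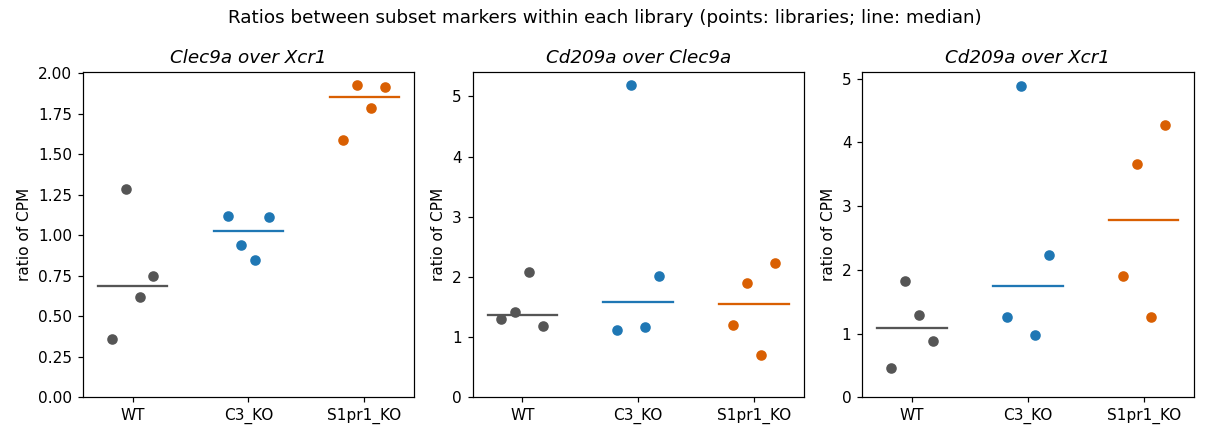
Ratios of CPM between subset markers within each library (y axis, from 0) by genotype (x axis), with points for libraries and a line at the median of 4. Clec9a over Xcr1 is 1.59 to 1.93 in S1pr1_KO and at most 1.28 elsewhere, and the other ratios overlap between genotypes.

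In C3_KO against WT, the question was how targeting C3 bears on the same genes. Of the 10 log2 fold changes, 9 were above 0, against 54.2% of all genes tested, with a median of 0.57 against 0.05. Markers of several other cell types were above 0 as well: 9 of 9 B cell genes with a median of 0.58, 8 of 8 endothelial genes with 0.49, 8 of 8 adipocyte genes with 1.28, 7 of 8 fibroblast genes with 0.48 and 6 of 6 NK cell genes with 0.44. The B cell sums were 15.7, 2.34, 1.77 and 4.25 CPM in C3_KO replicates 1 to 4, against 3.27 to 5.28 CPM in WT, so only replicate 1 exceeded WT. For NK cell genes the C3_KO sums were 10.5, 1.91, 1.75 and 4.50 CPM, against 2.61 to 4.29 CPM in WT. T cell genes were above 0 in 7 of 10 with a median of 0.26. Macrophage genes were above 0 in 5 of 10 with 0.01, and mammary epithelial genes in 4 of 10 with -0.03. The part of other cell types in the levels of the 10 genes was not tested. None of the 10 genes was called (edgeR), nor was any other gene, so that the share called was 0%. None of the 10 reached an unadjusted p of 0.05, where 6.23% of all genes did. No gene of the 10 parted C3_KO from WT without overlap, as 3.04% of all genes did. Cd209a had the largest value with a mean of 1.25 ± 0.567 CPM (SD, n = 4) and a log2 fold change of 1.11 ± 0.57 (SE; edgeR adjusted p = 0.765). Clec9a stood at 0.77, Siglech at 0.66, Zbtb46 at 0.62, Itgae at 0.57, Flt3 at 0.56 and Xcr1 at 0.29 on the log2 scale. Irf8 at 0.06, Batf3 at 0.04 and Fscn1 at -0.23 differed little from WT in their means, with intervals from -0.74 to 0.86, -0.98 to 1.07 and -1.60 to 1.14. Fscn1 rested on C3_KO replicate 2, and without it the log2 fold change was -1.23.

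The C3_KO tumours were uneven. Replicates 1 and 4 were above replicates 2 and 3 for Flt3, Xcr1, Clec9a, Siglech, Itgae and Irf8. Without replicate 1 the log2 fold change was 0.17 for Flt3, 0.35 for Clec9a and 0.04 for Siglech, while that of Cd209a was 1.07. Replicate 3, the library rich in milk transcripts, was the lowest of all 12 for Batf3, Siglech and Irf8.

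Between S1pr1_KO and C3_KO, the largest differences were those of Flt3 and Clec9a, at log2 0.99 with a 95% interval from -0.25 to 2.22 and 0.95 with an interval from -0.37 to 2.27. None of the 10 genes was called (edgeR adjusted p = 1.00 for each), the share called over all genes was 0%, and none reached an unadjusted p of 0.05, where 3.4% of all genes did. None parted these genotypes without overlap, as 1.31% of all genes did. Of the 10, 8 were above 0, against 46.2% of all genes tested, and Zbtb46 at -0.07 and Fscn1 at -0.44 were below. The comparisons share libraries, since each genotype enters a pair of them, so their values for the 10 genes are not independent.

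Lists of genes of each subset were examined in S1pr1_KO against WT, and none of their genes was called by edgeR in any of the comparisons. The type 1, type 2, plasmacytoid, mature, shared conventional, receptor and transcription factor lists include genes of the 10. Their counts and medians are therefore not separate from the results above. Of 15 type 1 genes measured, 10 had a log2 fold change above 0, with a median of 0.25. Among those above 0 were Xcr1, Clec9a, Batf3, Itgae and Irf8, already described. The smallest p was that of Wdfy4, which type 1 cells need for cross-presentation, at 4.50, 4.88, 2.50 and 3.37 CPM in WT and 19.6, 17.7, 6.09 and 10.1 CPM in S1pr1_KO. Every S1pr1_KO tumour was above every WT tumour for Wdfy4, as for 2.78% of all genes tested. Its log2 fold change was 1.81 ± 0.44 (SE; edgeR adjusted p = 0.194). Wdfy4 is also expressed in B cells, and the part of B cells in its level was not tested. Cadm1, Tlr3 and Snx22, picked after their values were seen, stood at log2 -0.12, 0.10 and -0.76. For Snx22, 3 S1pr1_KO tumours lay below all WT tumours (edgeR adjusted p = 0.302).

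Of 14 type 2 genes, 13 were above 0, with a median of 0.80. Irf4, a transcription factor of type 2 cells that B and plasma cells also use, had a log2 fold change of 2.88 ± 0.81 (SE; edgeR adjusted p = 0.216), at 8.85 and 8.78 CPM in S1pr1_KO replicates 1 and 2 and 0.650 and 1.37 CPM in replicates 3 and 4. Its WT levels were 0.317 to 1.26 CPM, so that its high values were those of the pair rich in B cell transcripts. Itgax, the integrin chain CD11c, was 18.2 to 32.3 CPM in S1pr1_KO and 7.10 to 19.3 CPM in WT, a log2 fold change of 0.93 ± 0.33 (SE; edgeR adjusted p = 0.250). There the highest tumour was S1pr1_KO replicate 4.

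Of 16 plasmacytoid genes, 9 were above 0, with a median of 0.77. Tlr9, a sensor of unmethylated DNA in plasmacytoid and B cells, was 1.07, 0.633, 0.267 and 0.385 CPM in WT and 3.42, 4.05, 2.17 and 3.81 CPM in S1pr1_KO. Its groups did not overlap, and its log2 fold change of 2.52 ± 0.53 (SE) had the smallest p of the dendritic cell lists (edgeR adjusted p = 0.145). Klk1, which salivary gland also makes, was 691 and 785 CPM in S1pr1_KO replicates 1 and 4, the libraries rich in salivary transcripts, and at most 15.3 CPM elsewhere. Bst2, Irf7 and Tcf4, picked after their values were seen and expressed in many cells, stood at log2 -0.70, -0.05 and -0.20. Runx2, also picked after its values were seen, had every S1pr1_KO tumour below every WT tumour, at log2 -0.60 (edgeR adjusted p = 0.297). Every C3_KO tumour was below every WT tumour as well, at log2 -0.85 (edgeR adjusted p = 0.765). Of all genes tested, 7.58% and 3.04% were parted in either direction in these comparisons.

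Of 20 genes of mature migratory cells, 13 were above 0, with a median of 0.40. Ccl22, a chemokine of mature cells, was 10.6, 3.75, 1.61 and 0.851 CPM in S1pr1_KO and 0.618 to 1.43 CPM in WT, a log2 fold change of 2.16 ± 0.71 (SE; edgeR adjusted p = 0.241). Apol7c, a gene of mature conventional cells in mice, was 9.26 and 4.65 CPM in S1pr1_KO replicates 1 and 2 and at most 1.08 CPM elsewhere. Like Fscn1, 6 other genes of this list were below 0, among them Ccl17 at log2 -1.10 and Nudt17 at -0.65, each with 3 of 4 S1pr1_KO tumours below all WT tumours. Among the 13 above 0, Ccr7 stood at 1.96 (edgeR adjusted p = 0.255), with 3 of 4 S1pr1_KO tumours above all WT tumours. Cd274 stood at 0.96 (edgeR adjusted p = 0.353), with every S1pr1_KO tumour above every WT tumour, as for 2.78% of all genes tested. Ccl17, Nudt17, Ccr7 and Cd274 were picked after their values were seen. Of 13 genes shared by conventional cells, 12 were above 0, with a median of 0.72. Of 5 Langerhans cell genes, 2 were above 0, and Mfge8, which mammary epithelium makes in quantity, had the smallest p at log2 -0.96 (edgeR adjusted p = 0.331).

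Of 14 ligands that feed or attract dendritic cells, 12 were above 0 with a median of 0.31, and none reached an unadjusted p of 0.05. Cxcl12 stood at log2 0.84 and Kitl at 0.88 (edgeR adjusted p = 0.344 and 0.348). Of 15 growth factor and chemokine receptors, 13 were above 0 with a median of 0.64, among them Ccr6 at 3.07 (edgeR adjusted p = 0.229), a receptor of B cells as well, and the cytokine receptor chain gene Csf2rb2 at 1.07 (edgeR adjusted p = 0.251). Of 26 transcription factors, 21 were above 0 with a median of 0.28, and of 18 genes for the functions of type 1 cells, 10 were above 0 with a median of 0.08. In C3_KO against WT the medians of these lists were 0.29 for type 1, 0.52 for type 2, 0.12 for plasmacytoid, 0.11 for mature, 0.35 for shared conventional, 0.05 for Langerhans, 0.29 for ligand, 0.39 for receptor, 0.06 for transcription factor and -0.06 for type 1 function genes.

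The genes whose log2 CPM was most like each of the 10 over the 12 libraries are given as a description, by Pearson's r among 13962 or 13963 genes whose log2 CPM averaged 0 or more, a level that Xcr1, Clec9a, Cd209a and Siglech did not reach themselves. Flt3 was followed most closely by Nlrc4 at 0.986, Abca8a at 0.975 and Arhgap30 at 0.970, and Irf8 by Snx20 at 0.977, Fermt3 at 0.976 and Parvg at 0.972. Clec9a was followed by Ablim1 at 0.961, Dok3 at 0.957 and Rnase6 at 0.950, Siglech by Aldh1a1 at 0.962, Mill2 at 0.961 and Cacnb4 at 0.958, and Itgae by Plcb2 at 0.955, Pkib at 0.952 and Axl at 0.941. Cd209a had Svep1 at 0.963, Cilp at 0.959 and Kctd12 at 0.958, and Zbtb46 had Rnf150 at 0.953, Kcp at 0.948 and Ssc5d at 0.940. Batf3 had Lsp1 at 0.952, Rarres2 at 0.950 and the T cell kinase gene Lck at 0.940, and Xcr1 had the cytokine gene Il15 at 0.930, Lhfp at 0.928 and Klhl29 at 0.924. Fscn1 had Camk2n1 at 0.935, Prrx2 at 0.935 and Tamalin at 0.906. Among the 10 genes themselves, Flt3 and Clec9a were the most alike at 0.931, followed by Flt3 and Siglech at 0.894, and Fscn1 was least like Itgae at -0.509. The points are the same 12 libraries for every gene and share their depth and the libraries that stood apart.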

How the data were processed

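Total RNA of 12 tumours was sequenced as described per the labels' protocols: tumours went into RNAlater, QIAzol served for RNA extraction, and a company made Illumina libraries. The authors deposited whole-number counts per gene and FPKM values, of which 682317 of 682320 equal the counts scaled by gene length and column total within a relative tolerance of 1e-04. Per the submitters' processing notes, StringTie and GRCm39 (mm39) were named, and the aligner, counter and strand setting were not given in the sources used here. Genotypes came from the labels, and replicate numbers, given in accession order, only name libraries. Counts were tested with edgeR 4.0.16 in R 4.3.3 (default low-count filter, TMM factors, robust quasi-likelihood F-test, 12 libraries, 9 residual degrees of freedom), with Benjamini-Hochberg adjustment over 30660 genes. SEs came from the fold change and F statistic, and 95% intervals from the SE on 9 degrees of freedom. Log2 CPM used a prior count of 2. Alternatives used DESeq2 1.42.0 and limma 3.58.1, also on log2(FPKM + 1) and log2(FPKM + 0.1), and ratios exact permutation in scipy 1.17.1. The edgeR step was tested on simulated data. The 10 genes, the 22 other lists and the left-out libraries were chosen with earlier results of these data known. The rule for names took all 10 genes, the called members of each list or up to 2 of smallest p, and the 3 genes most like each; other genes named were chosen after their values were seen. All lists were read from the same fit. A gene of the B cell list is not reported here and was left out of its sums.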

Additional observations from a re-analysis of the deposited data

Results flagged for a closer look

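In 30 sets of 4 libraries (10 genes in 3 genotypes), a library far from the other 3 was found in 2, and chance flags about 1 in 20. Batf3 stood at 3.44 CPM in WT replicate 2, with the other WT libraries at 1.68 to 1.95 CPM. Fscn1 stood at 125 CPM in C3_KO replicate 2, with the other C3_KO libraries at 14.4 to 32.2 CPM.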

How the results depend on the processing

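No paired analysis was possible because the labels give no shared replicate numbers. Over 23 alternatives, the 10 genes kept direction and side of the threshold in 221 of 230 refits for S1pr1_KO against WT, 220 of 230 for C3_KO against WT and 215 of 230 between the knockouts. In S1pr1_KO against WT, the genes called numbered 23 with the CPM filter, 10 with no filter, 27 with library totals, 68 with only the 2 genotypes compared, 33 and 43 on log2(FPKM + 1) and log2(FPKM + 0.1), 930 with DESeq2 and 7828 with limma-voom, and 0 to 1330 with 1 library left out. Of the 10 genes, 1, 4 and 0 to 1 were called by DESeq2, limma-voom and with 1 library left out. In C3_KO against WT the calls were 82 with DESeq2, 5 with limma-voom, 1 on log2(FPKM + 1) and 0 to 8 with 1 library left out, and between the knockouts 106 with DESeq2 and 0 to 3. None of the 10 genes was among these. Without S1pr1_KO replicates 1 and 2, log2 fold changes turned to -0.11 for Batf3 and -0.42 for Xcr1 against WT, and against C3_KO to -0.15 for Batf3, -0.71 for Xcr1, -0.29 for Cd209a and -0.53 for Siglech. Between the knockouts Batf3 turned to -0.080 with limma-voom and, leaving out C3_KO replicate 3 and S1pr1_KO replicates 1 and 4, Batf3 turned to -0.13 and Xcr1 to -0.13. With 1 library left out, the ranges that crossed 0 were, against WT, -0.061 to 0.55 for Batf3 in S1pr1_KO, and in C3_KO -0.27 to 0.34 for Batf3, -0.059 to 0.53 for Xcr1, -1.23 to 0.22 for Fscn1 and -0.23 to 0.31 for Irf8. Between the knockouts they were -0.13 to 0.52 for Batf3, -0.23 to 0.57 for Xcr1, -0.25 to 0.079 for Zbtb46 and -0.75 to 0.56 for Fscn1. The cause was not tested. The Clec9a to Xcr1 difference, tried in ways chosen after seeing the data, was 1.10 to 1.71 with 1 library left out and 1.44 without S1pr1_KO replicates 1 and 2. Groups that do not overlap cannot come to overlap when libraries are left out, so these values say nothing of stability. The lowest count of any of the 10 genes was 40.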

Other observations

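Neutrophil and adipocyte transcripts, which belong to no comparison of dendritic cell genes, were also uneven. Neutrophil markers summed to 103 CPM in C3_KO replicate 3, the library with the lowest Siglech, Irf8 and Batf3, and to 6.28 to 36.8 CPM elsewhere. Adipocyte markers summed to 1079 and 911 CPM in S1pr1_KO replicates 1 and 2, the tumours highest in Flt3, Clec9a and Siglech, and to at most 295 CPM elsewhere. NK cell markers summed to 12.0 and 9.63 CPM in the same pair and to 10.5 CPM in C3_KO replicate 1, against 1.75 to 4.50 CPM in the other 9 libraries. Macrophage markers were lowest in C3_KO replicate 3 at 248 CPM, and stood at 450 to 693 CPM in the other libraries. Of 8 lymph node stroma markers tested, 5 had a log2 fold change above 0 in S1pr1_KO against WT, with a median of 0.90. The mean log2 CPM of the list was 4.03, 3.04, 0.999 and 0.843 in S1pr1_KO replicates 1 to 4. It was 1.83 to 2.53 in WT and 0.873 to 3.16 in C3_KO. The 3.16 was that of C3_KO replicate 3, the library rich in milk transcripts, where the list summed to 14154 CPM against at most 1485 CPM elsewhere. The list includes Glycam1, with means of 1984 CPM in C3_KO and 2.73 CPM in WT, and Ltf, with 2003 and 1016 CPM. The part of milk transcripts in this list was not tested. Ccl21a, the lymph node chemokine, was 42.3 and 28.0 CPM in S1pr1_KO replicates 1 and 2 and 2.97 to 14.1 CPM in WT. For Ccl21a, 2 S1pr1_KO tumours lay below all WT tumours. Cd209b, a relative of Cd209a, was 4.51 and 2.86 CPM in S1pr1_KO replicates 1 and 2 and at most 1.10 CPM in the other libraries. What these values mean for the dendritic cell genes was not tested. Endothelial markers summed to 142 to 228 CPM in S1pr1_KO and 66.9 to 142 CPM in WT, and fibroblast markers to 1903 to 3789 and 1354 to 3941 CPM.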
